A study of Mus musculus with 15 samples.

Results

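The nuclear-encoded genes of the mitochondrial respiratory chain were followed in 15 bulk mouse melanoma tumors. They were taken as the rows of the deposited table whose symbol begins with Ndufa, Ndufb, Ndufc, Ndufs, Ndufv, Sdh, Uqcr, Cox4i, Cox5, Cox6, Cox7, Cox8 or Atp5, with a level of at least 1 TPM (a relative abundance corrected for transcript length) in at least 3 of the 15 libraries. Of 94 matching symbols among 23420 in the table, 92 passed, and Cox7b2 and Cox8c were listed at 0 in every library. Complex I had 36 of these genes, complex II 4, complex III 8, complex IV 18, counting Ndufa4 and its paralog Ndufa4l2, and complex V 16. The prefixes also took in 10 assembly factors. Closest above the level filter were Cox6b2, Atp5s and Cox8b, whose third-highest libraries held 4.57, 5.57 and 5.66 TPM, and nothing lay just below it apart from the 2 genes at 0.

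The tumors were grafts of mouse melanoma cells placed under the skin of female C57BL/6 mice aged 8 weeks, with 1000000 cells per flank. The line D4M.3A.3 (parental) was compared with D3UV2 (UV2), a line with putative neoantigens induced by UVB light. There were 3 libraries in each of 5 groups: parental with isotype control antibody, parental with anti-PD-1, parental with triple therapy, UV2 with isotype antibody and UV2 with anti-PD-1. Anti-PD-1 blocks a checkpoint receptor of T cells. Left-flank tumors were treated on days 8, 10 and 12, with laser on days 8 and 12, and harvested on day 13. The labels disagree on triple therapy. Its components are given with the samples as anti-PD-1, imiquimod (a topical agonist of an innate immune receptor) and ablative fractional photothermolysis, in which a laser makes small columns of injury in skin. The protocol instead pairs the laser and imiquimod with isotype antibody, so the antibody these tumors received is not known here. Each line is a single model, no UV2 tumor had triple therapy, and no label ties the 3 libraries in each group to different mice, so p-values measure the spread between libraries, which may be partly technical.

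The respiratory chain sits in the inner mitochondrial membrane. Complex I takes electrons from NADH and complex II from succinate, complex III passes them to cytochrome c, complex IV hands them to oxygen, and complex V, the ATP synthase, uses the proton gradient built by complexes I, III and IV. Most subunits are encoded in the nucleus and a few catalytic ones in mitochondrial DNA, and none of the 13 mitochondrially encoded genes had a row in the table. The nuclear respiratory factor NRF1, the ETS-family factor GABP and YY1 are known regulators of many of these promoters.

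RefSeq promoter windows (GRCm38.p6, 250 bases before to 50 after the start) were found for 77 of the 92 genes, 83 windows in all. The NRF1 palindrome (the half-site GCGCA joined to its reverse complement TGCGC) occurred in 8.43% of these windows and 0.971% of all 32851 windows, CCGGAAG or its reverse complement (ETS) in 22.9% and 8.86%, and AAGATGGCG or its reverse complement (YY1) in 10.8% and 1.4%. The ETS and YY1 strings can share AAG. At least 1 of the strings was present in 38.6% of the windows of these genes and in 10.8% of all windows. Among windows of the genes that were higher in UV2 tumors 9 of 21 held one, and among those of genes that were not called, 23 of 61. Upstream stretches are shown for 3 genes that were higher in UV2 tumors (Ndufc2, Atp5e and Cox6a1) and 1 that was lower (Atp5b), each 5′ to 3′ on the gene's strand and ending before both the RefSeq and the GENCODE start, with any of the motif letters in capitals. They lie at chr7:97399753-97400002 (+), chr2:174464106-174464351 (-), chr5:115348982-115349208 (-) and chr10:128083057-128083272 (+).
Ndufc2: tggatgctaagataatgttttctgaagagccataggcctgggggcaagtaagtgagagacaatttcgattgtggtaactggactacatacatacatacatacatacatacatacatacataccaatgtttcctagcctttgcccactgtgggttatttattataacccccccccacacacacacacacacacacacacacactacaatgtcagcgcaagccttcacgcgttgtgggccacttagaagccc
Atp5e: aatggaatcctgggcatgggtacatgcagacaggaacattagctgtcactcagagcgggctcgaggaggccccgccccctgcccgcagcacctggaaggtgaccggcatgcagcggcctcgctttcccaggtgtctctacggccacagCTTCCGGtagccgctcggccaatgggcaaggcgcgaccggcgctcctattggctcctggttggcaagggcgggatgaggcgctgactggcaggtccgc
Cox6a1: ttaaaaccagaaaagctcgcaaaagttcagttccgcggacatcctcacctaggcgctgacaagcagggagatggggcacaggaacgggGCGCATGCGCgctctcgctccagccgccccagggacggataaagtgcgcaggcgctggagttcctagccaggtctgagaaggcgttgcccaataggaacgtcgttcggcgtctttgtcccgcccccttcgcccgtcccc
Atp5b: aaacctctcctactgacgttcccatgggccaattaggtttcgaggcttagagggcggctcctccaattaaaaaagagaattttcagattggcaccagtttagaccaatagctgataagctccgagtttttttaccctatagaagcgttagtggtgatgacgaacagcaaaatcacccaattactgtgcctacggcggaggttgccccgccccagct
In these stretches Atp5e carried the ETS letters in reverse complement, Cox6a1 carried the NRF1 palindrome, and Ndufc2 and Atp5b carried none of the strings. A match of letters is a description and shows no binding.

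The columns of the table each sum to 1000000 TPM, so read depth is not known. The libraries correlated between 0.820 and 0.990 on the log2 scale and held 12239 to 13993 genes at 1 TPM or more. Melanocyte markers were low: Mitf lay at 5.28 to 14.15 TPM and Tyr at 1.49 to 4.57 TPM, while Tyrp1 and Dct were at 0 in 11 of 15 libraries. Host tissue was present to varying degrees. The skeletal muscle actin gene Acta1 was under 10 TPM in 5 libraries and reached 311 TPM in the other 10, and the keratinocyte gene Krt14 reached 11620.4 TPM in parental triple therapy replicate 1. In bulk tissue, fewer cells of a type and less RNA per cell cannot be told apart. Many respiratory chain genes are short and have processed pseudogenes, so the authors' estimation could split their reads among near-identical copies.

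Summed over the 92 genes, respiratory chain transcripts made up 1.71% to 2.69% of a library's TPM. The sums were 1.92%, 1.78% and 2.44% in the parental isotype tumors, 1.84%, 1.97% and 1.77% with anti-PD-1, 1.71%, 1.95% and 1.99% with triple therapy, 2.31%, 2.58% and 1.93% in the UV2 isotype tumors and 1.97%, 2.30% and 2.69% with anti-PD-1. UV2 anti-PD-1 replicate 3 was highest and parental triple therapy replicate 1 lowest, and the ranges of the lines overlapped, with parental isotype replicate 3 high and UV2 isotype replicate 3 low. Complex V supplied the largest share of the 5 complexes, with a median of 0.693% of the TPM, followed by complex I at 0.532%, complex IV at 0.472%, complex III at 0.182% and complex II at 0.0713%. Group means for complex I were 0.553% ± 0.107 (SD, n = 3) in parental isotype, 0.504% ± 0.0332 in parental anti-PD-1, 0.498% ± 0.0411 in parental triple therapy, 0.638% ± 0.102 in UV2 isotype and 0.656% ± 0.113 in UV2 anti-PD-1 tumors.

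**Figure D1:**
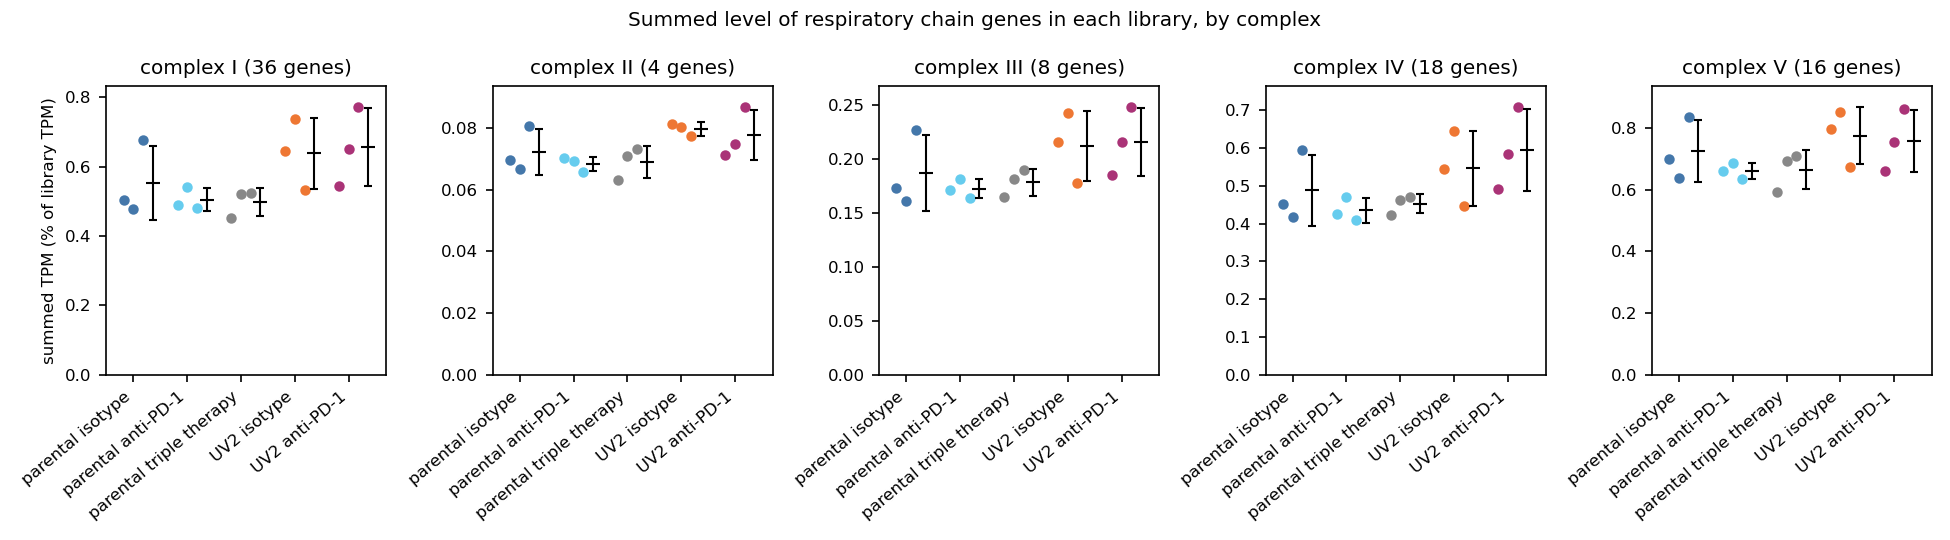
Summed TPM of the genes of each complex as a percent of the library's TPM (vertical axis), by group; each colored point is a library, and the black mark and bar are the group mean and SD (n = 3). In all 5 panels parental isotype replicate 3 sits with the higher UV2 libraries, and the ranges of the lines overlap.

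The first question was whether the lines differ. On log2(TPM + 1), 24 of 92 genes were higher and 3 lower in UV2 than in parental tumors when the isotype and anti-PD-1 differences were averaged (limma, Benjamini-Hochberg adjusted p under 0.05 over 13592 genes). Of all tested genes, 33.0% were called in this comparison, 13.4% higher and 19.6% lower, against 29.3% of the respiratory chain genes, 26.1% higher and 3.26% lower. Called higher were 13 of 36 in complex I (36.1%), 1 of 4 in complex II (25%) and 1 of 8 in complex III (12.5%). Also higher were 6 of 18 in complex IV (33.3%), 2 of 16 in complex V (12.5%) and 1 of 10 assembly factors (10%). Complexes III and V and the assembly factors thus lay near or below the 13.4% of all genes. The 3 called lower were Ndufs1, Uqcrc2 and Atp5b, which encode large subunits of complexes I, III and V. The median difference was 0.26 for the 92 genes and -0.12 for all genes tested. Values fell between -0.48 and 1.49.

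Under anti-PD-1 alone, 16 genes were higher and 2 lower in UV2, with 26.4% of all tested genes called, 9.31% higher and 17.1% lower. The median difference was 0.34, against -0.21 for all genes. Between the isotype groups none of the 92 was called (limma), where 1.29% of all genes were, 0.905% higher and 0.390% lower. Of the 92, 12 had an unadjusted p under 0.05, 10 higher and 2 lower. Of all 13592 genes tested, 2418 had such a p, 1405 higher and 1013 lower. The isotype median was 0.15, against -0.04 for all genes. In both treatments the difference was above 0 for 69 of the 92 genes (75.0%) and below 0 for 11 (12.0%). For all tested genes these shares were 31.8% and 48.4%. The interaction of line and anti-PD-1 called none of the 92 genes and none of all genes tested. None of the 92 had an unadjusted p under 0.05 there, against 404 of all 13592 genes.

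Single libraries moved these counts, and the share of all tested genes called moved with them. The averaged comparison called 9 members (19.6% of all genes) without parental isotype replicate 1, 10 (20.6%) without replicate 2 and 50 (42.8%) without replicate 3. It called 15 (24.6%) without parental anti-PD-1 replicate 1, 13 (19.8%) without replicate 3, 10 (21.6%) without UV2 isotype replicate 2 and 41 (36.1%) without UV2 isotype replicate 3. Without UV2 anti-PD-1 replicate 2 it called 16 (26.6%) and without replicate 3 it called 9 (20.2%). In both fits with 9 calls, the members were Ndufc2, Ndufs1, Cox7a2l, Cox4i2, Atp5e, Ndufa6, Ndufb8, Atp5b and Sdhb. All other averaged calls, among them Uqcrc2, Ndufa4l2, Cox5a, Cox6a1, Atp5f1 and Ndufs7, were lost there. The anti-PD-1 comparison called none (0.0662% of all genes) without parental anti-PD-1 replicate 3 and none (0.0662%) without UV2 anti-PD-1 replicate 3. It called 1 (8.92%) without parental anti-PD-1 replicate 1, 2 (10.9%) without UV2 anti-PD-1 replicate 2 and 30 (30%) without UV2 anti-PD-1 replicate 1. The isotype comparison called 3 (3.37%) without parental isotype replicate 3 and 1 (3%) without UV2 isotype replicate 1.

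**Figure D2:**
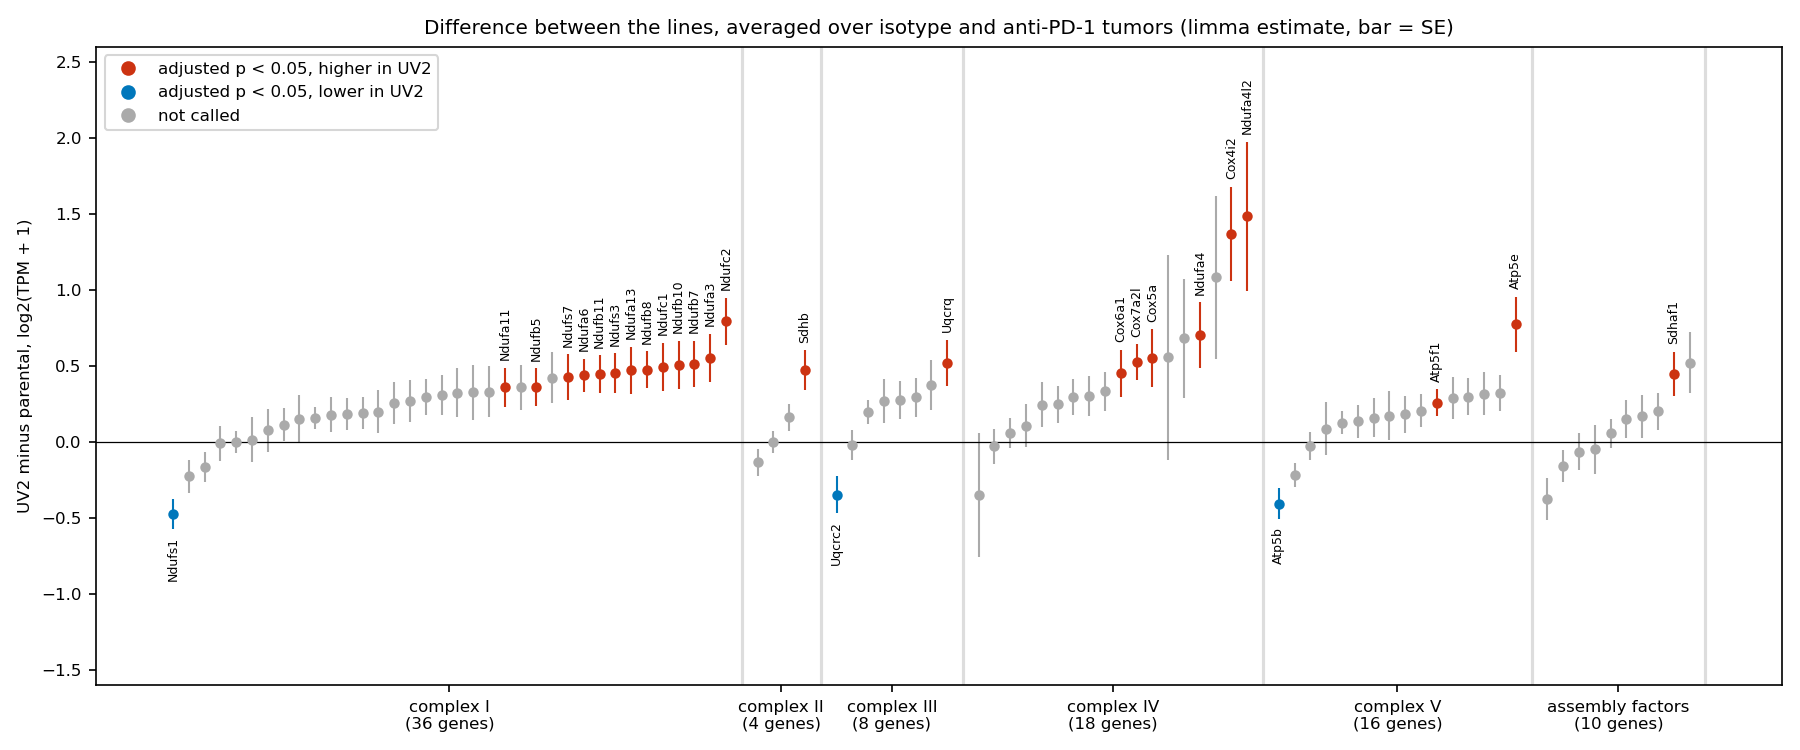
UV2 minus parental difference on log2(TPM + 1), averaged over isotype and anti-PD-1 tumors, for each gene grouped by complex and ordered within it (points, limma estimate; bars, SE). Red points are the 24 genes called higher, blue points are Ndufs1, Uqcrc2 and Atp5b, called lower, and the other points passed no call.

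In complex I, 13 of 36 genes were higher in UV2 (36.1%, against 13.4% of all genes) and 1 was lower. Of the 29 accessory subunits, which surround the catalytic core, 11 were higher (37.9%), and of the 7 core subunits 2 (28.6%). The gene with the smallest adjusted p was Ndufc2 (ENSMUSG00000030647.8, chr7:97400003-97407802, GRCm38), an accessory subunit of the membrane arm. It measured 96.3, 94.9 and 163 TPM in parental isotype tumors, 101, 127 and 97.9 with anti-PD-1 and 115, 119 and 122 with triple therapy. UV2 tumors had 164, 217 and 153 TPM with isotype antibody and 178, 202 and 267 with anti-PD-1. All 3 UV2 anti-PD-1 values exceeded every parental one, and in the isotype tumors parental replicate 3 lay between the UV2 values. The share of all genes that separate 3 libraries from 3 was not counted. Most genes described in this way were named for a small p, so such separations, here and below, add no support to a call. The averaged difference was 0.79 ± 0.15 (SE), a 1.73-fold change, with an adjusted p of 0.0038, and it passed with each of the 12 libraries left out in turn. By treatment it was 0.62 ± 0.22 with isotype antibody (adjusted p = 0.16) and 0.97 ± 0.22 with anti-PD-1 (adjusted p = 0.016), where the call was lost without parental anti-PD-1 replicate 3 (0.086) or UV2 anti-PD-1 replicate 3 (0.081).

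The accessory subunits Ndufa6 and Ndufb8 rose by 0.44 ± 0.11 and 0.48 ± 0.12 in UV2 (adjusted p = 0.010 and 0.012), each passing in all 12 fits without 1 library. Ndufa6 measured 115, 139.6 and 167 TPM in parental isotype, 136, 169 and 136 in parental anti-PD-1, 189.96, 206 and 162 in UV2 isotype and 182, 218 and 209 in UV2 anti-PD-1 tumors. Its anti-PD-1 groups did not overlap, while in the isotype groups UV2 replicate 3 lay just under parental replicate 3. Ndufa3, another accessory subunit, and Ndufs3, a core subunit of the peripheral arm, were called with anti-PD-1, at 0.74 ± 0.23 and 0.59 ± 0.18 (adjusted p = 0.034 and 0.037). Both anti-PD-1 calls were lost without parental anti-PD-1 replicate 1 or 3 or UV2 anti-PD-1 replicate 2 or 3 (adjusted p 0.069 to 0.16). They were also lost with the transcript length trend described further on removed, at 0.16 for Ndufa3 and 0.25 for Ndufs3 (adjusted p = 0.39 and 0.22), and with a coding length trend removed (adjusted p = 0.085 and 0.089). Ndufs3 rose from 106, 135 and 116 TPM in parental to 151, 170.2 and 224 in UV2 anti-PD-1 tumors, groups that did not overlap.

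Ndufs1 (ENSMUSG00000025968.16, chr1:63143596-63176833) encodes the largest core subunit, which carries iron-sulfur clusters of the electron path from NADH. It went the other way. Parental tumors held 75.65, 65.1 and 65.9 TPM with isotype antibody, 75.3, 62.4 and 67.45 with anti-PD-1 and 61.7, 71.2 and 75.0 with triple therapy. UV2 tumors held 60.1, 47.2 and 56.0 with isotype antibody and 49.6, 45.7 and 38.2 with anti-PD-1. Every UV2 library lay below every parental one. Averaged over treatments, it differed by -0.48 ± 0.10 (adjusted p = 0.0054), it passed in all 12 fits without 1 library, and with anti-PD-1 it was -0.61 ± 0.14 (adjusted p = 0.017). The anti-PD-1 call was lost without parental anti-PD-1 replicate 1 or 3 or UV2 anti-PD-1 replicate 3 (adjusted p 0.053 to 0.085). Of the 7 core subunits, Ndufs3 and Ndufs7 were higher in UV2 and Ndufs1 was lower. Ndufa2, with the highest mean TPM in complex I, ran from 213 TPM in parental triple therapy replicate 1 to 507 in UV2 isotype replicate 2 and was not called (0.33 ± 0.17, adjusted p = 0.14).

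**Figure D3:**
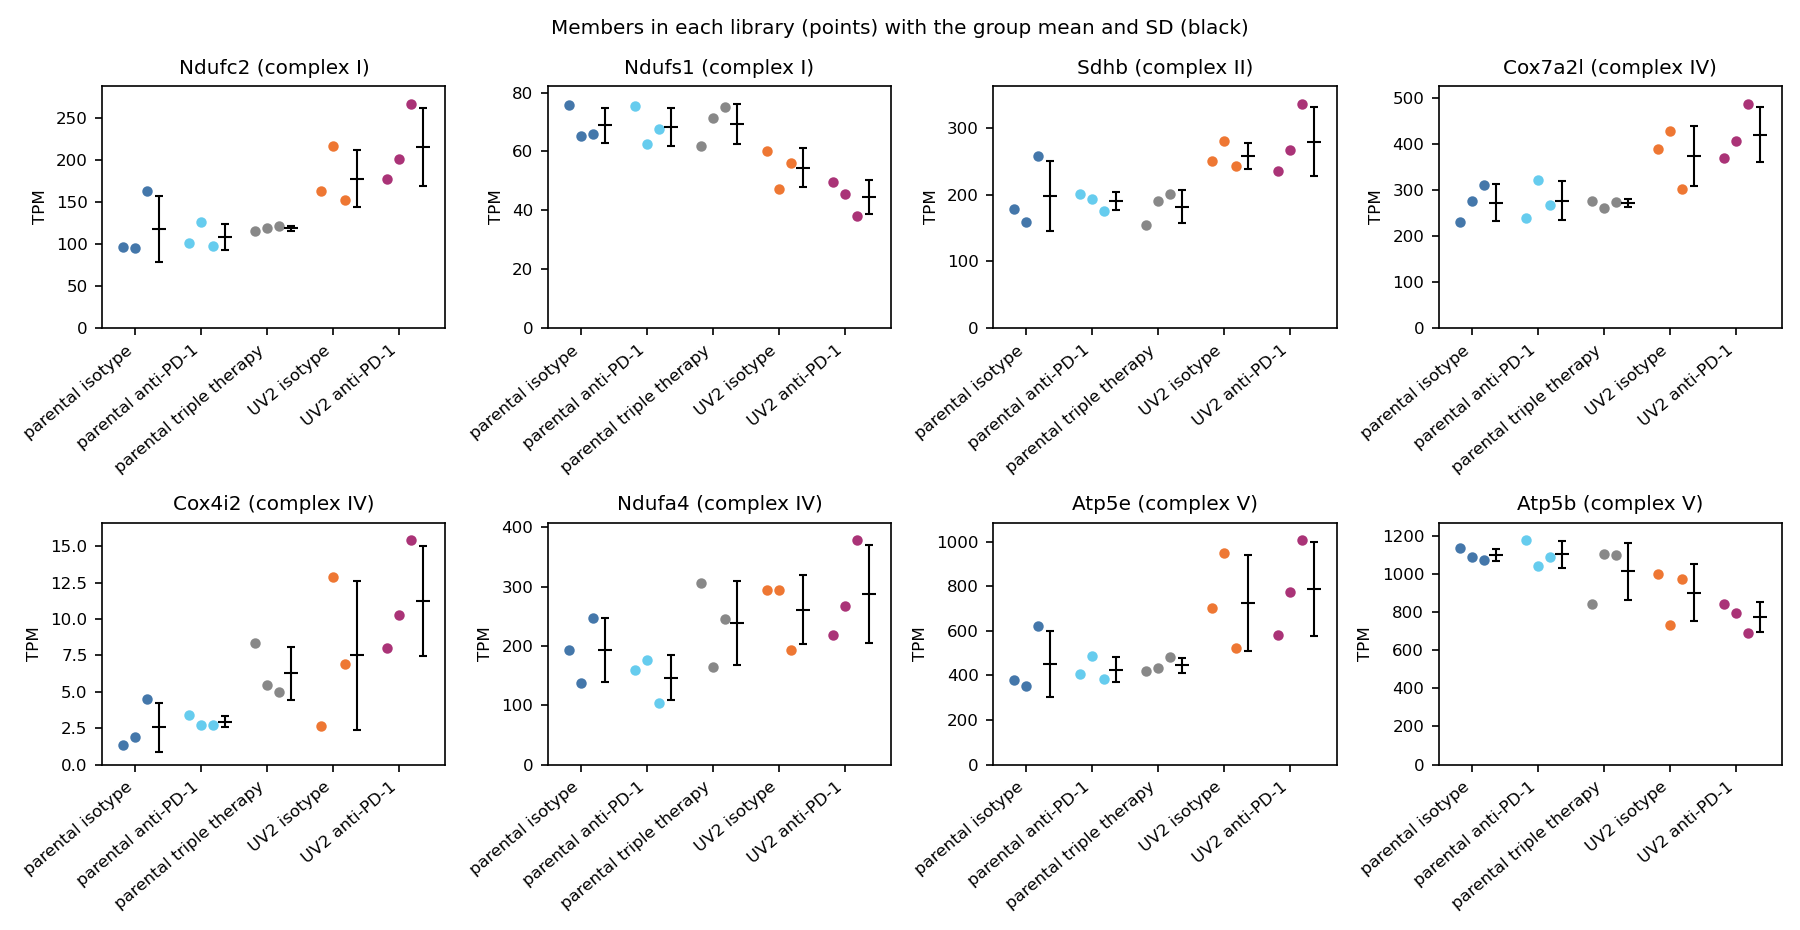
TPM (vertical axes, from 0) of 8 genes in each of the 15 libraries, by group; the black mark and bar are the group mean and SD (n = 3). Ndufs1 and Atp5b are lower in all 6 UV2 libraries than in the 6 parental isotype and anti-PD-1 libraries, and the other 6 genes are higher in UV2 on average with some overlap between the lines.

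Complex II has 4 subunits, Sdha with the flavin, Sdhb with the iron-sulfur clusters, and the membrane anchors Sdhc and Sdhd. Only Sdhb (chr4:140961203-140979193) was called. It measured 179, 159 and 258 TPM in parental isotype, 201, 194 and 175 in parental anti-PD-1, 155, 191 and 202 in parental triple therapy, 250.2, 281 and 243 in UV2 isotype and 235, 267 and 337 in UV2 anti-PD-1 tumors. Parental isotype replicate 3 was the only one of the 6 parental isotype and anti-PD-1 libraries within the UV2 range. The averaged difference was 0.47 ± 0.13 (adjusted p = 0.017, passing in all 12 fits without 1 library). Sdhd and Sdhc differed by 0.16 ± 0.09 and 0.00 ± 0.07 (adjusted p = 0.18 and 0.99). Sdha differed by -0.13 ± 0.09 (adjusted p = 0.23), with 162 ± 21.1 TPM in UV2 isotype and 131 ± 12.8 in UV2 anti-PD-1 tumors (SD, n = 3).

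Complex III had Uqcrq, a small subunit, higher in UV2 and Uqcrc2, a large core protein, lower, and its other 6 genes were not called. Uqcrq was 134, 114 and 228 TPM in parental isotype, 156, 175 and 170.2 in parental anti-PD-1, 198, 262 and 189.5 in UV2 isotype and 222, 239 and 275 in UV2 anti-PD-1 tumors, and the anti-PD-1 groups did not overlap. The averaged difference was 0.52 ± 0.15 (adjusted p = 0.022), which was lost without parental isotype replicate 1 or 2, UV2 isotype replicate 2 or UV2 anti-PD-1 replicate 3, where adjusted p ran from 0.057 to 0.060. Uqcrc2, named like Cox5a, Atp5f1, Ndufs7 and Atp5a1 after its values were seen, fell by 0.35 ± 0.12 (adjusted p = 0.048), from 138 ± 16.8 TPM in parental isotype and 134 ± 2.62 in parental anti-PD-1 to 120.4 ± 26.8 and 96.9 ± 18.3 in the corresponding UV2 tumors (SD, n = 3). The Uqcrc2 call was lost at least without parental isotype replicate 1 and without UV2 anti-PD-1 replicate 3. It was also lost with median-of-ratios scaling, no level filter, the compared groups alone or a replicate block. Uqcrh, the hinge protein with the highest TPM in the complex, was not called (0.27 ± 0.15, adjusted p = 0.16).

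In complex IV, 6 of 18 genes were higher in UV2 (33.3%, against 13.4% of all genes) and none lower: Cox7a2l, Cox5a, Cox6a1, Ndufa4, Cox4i2 and Ndufa4l2. Cox7a2l (chr17:83501918-83517330), also called SCAF1, is named as a factor that joins complexes III and IV into supercomplexes, which were not measured here. Its levels were 232, 277 and 310.3 TPM in parental isotype, 240.4, 323 and 268 in parental anti-PD-1, 277, 261 and 275 in parental triple therapy, 389.85, 429 and 303 in UV2 isotype and 369, 406 and 487 in UV2 anti-PD-1 tumors. The anti-PD-1 groups did not overlap, and UV2 isotype replicate 3 lay within the parental range. The averaged difference was 0.53 ± 0.12, a 1.44-fold change (adjusted p = 0.0069, passing in all 12 fits without 1 library). Ndufa4, a subunit first assigned to complex I, was 194, 138 and 247 TPM in parental isotype, 159.8, 177 and 103 in parental anti-PD-1, 307, 164 and 245 in parental triple therapy, 295, 294 and 194 in UV2 isotype and 218, 267 and 378 in UV2 anti-PD-1 tumors. The anti-PD-1 groups were separate and the isotype groups overlapped. It rose by 0.70 ± 0.21 on average (adjusted p = 0.026), a call lost in 5 of 12 fits: without parental isotype replicate 1 or 2, parental anti-PD-1 replicate 3, UV2 isotype replicate 2 or UV2 anti-PD-1 replicate 3, with adjusted p of 0.053 to 0.071. Cox6c was called only in the anti-PD-1 comparison (0.59 ± 0.18, adjusted p = 0.037). This call was lost without parental anti-PD-1 replicate 1 or 3 or UV2 anti-PD-1 replicate 2 or 3 (adjusted p 0.085 to 0.15), with no level filter (0.052), with a replicate block (0.055), and with either length trend removed. The interaction for it was 0.51 ± 0.26 (adjusted p = 0.80). The most abundant gene by mean TPM, Cox4i1, ran from 576 to 989 TPM over the 15 libraries and was not called (0.30 ± 0.13, adjusted p = 0.089).

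The alternative isoforms of complex IV varied most between libraries. Cox6a2, Cox7a1 and Cox8b are the forms of striated muscle, Cox4i2 and Ndufa4l2 are forms known for induction by hypoxia and for expression in pericytes and other contractile cells, and Cox6b2 is a testis form. Cox8b was at 0 to 0.42 TPM in the 5 libraries with Acta1 under 10 TPM and at 0 to 11.4 TPM in the other 10. Cox6a2 was at 0 to 6.85 TPM and 2.29 to 18.9 TPM in the same sets, and Cox7a1 at 0.84 to 7.83 TPM and 3.48 to 10.5 TPM. The muscle forms stayed minor: Cox8b was at most 1.89% of Cox8a plus Cox8b, Cox6a2 at most 3.06% of its pair and Cox7a1 at most 5.07% of Cox7a1 plus Cox7a2. None of these 3 was called between the lines.

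**Figure D4:**
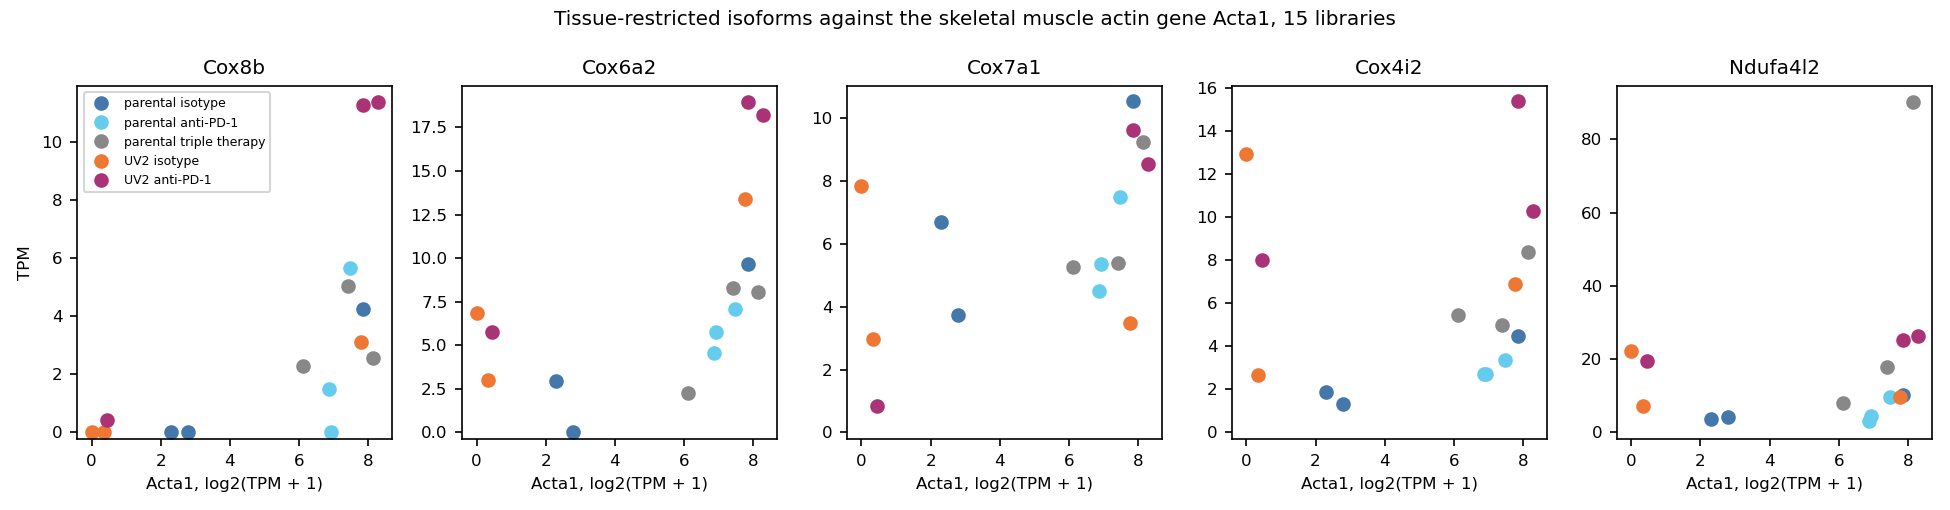
TPM of 5 alternative complex IV isoforms (vertical axes) against log2(TPM + 1) of the skeletal muscle gene Acta1 (horizontal axes); each point is 1 of 15 libraries, colored by group. Cox8b is near 0 in the 5 libraries at the left, Cox4i2 and Ndufa4l2 are not, and Ndufa4l2 has 1 library, parental triple therapy replicate 1, at 90.2 TPM.

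Cox4i2 was called higher in UV2 by 1.37 ± 0.31, a 2.58-fold change (adjusted p = 0.0075, passing in all 12 fits without 1 library). Its levels were low: 1.34, 1.90 and 4.50 TPM in parental isotype, 3.38, 2.74 and 2.72 in parental anti-PD-1, 8.38, 5.47 and 5 in parental triple therapy, 2.68, 12.9 and 6.89 in UV2 isotype and 8.04, 10.3 and 15.4 in UV2 anti-PD-1 tumors. Anti-PD-1 groups were separate, and the isotype groups overlapped through UV2 replicate 1. It made up 0.21% to 1.53% of Cox4i1 plus Cox4i2. Ndufa4l2, named for its large spread, was 4.18, 3.64 and 10.2 TPM in parental isotype, 9.64, 4.49 and 3.00 in parental anti-PD-1, 90.2, 8.04 and 17.9 in parental triple therapy, 7.32, 22.25 and 9.63 in UV2 isotype and 19.6, 26.4 and 25.1 in UV2 anti-PD-1 tumors. The anti-PD-1 groups were again separate and the isotype groups overlapped. Between the lines it rose by 1.49 ± 0.49 (adjusted p = 0.036). This call was lost at least without parental isotype replicate 1 and without UV2 anti-PD-1 replicate 3. The fits without parental isotype replicate 2 or UV2 isotype replicate 2 called 10 members each. Ndufa4l2 and Uqcrc2 were not both among them. The library at 90.2 TPM was also the highest of the 15 for the pericyte genes Rgs5 (95.5 TPM) and Notch3 (28.0 TPM), for the endothelial gene Pecam1 (155 TPM) and for Krt14, and Ndufa4l2 there was 22.7% of Ndufa4 plus Ndufa4l2. The part of these cells in the isoform's level was not tested.

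Complex V combines a catalytic F1 head with a membrane part and stalks. Of 16 genes, Atp5e and Atp5f1 were higher in UV2 (12.5%, near the 13.4% of all genes) and Atp5b was lower. Atp5e (ENSMUSG00000016252.7, chr2:174461072-174464105), the small epsilon subunit at the foot of the head, was 378, 351 and 619.99 TPM in parental isotype, 407, 488 and 382 in parental anti-PD-1, 419, 435 and 483 in parental triple therapy, 701, 949 and 521 in UV2 isotype and 581, 774 and 1005 in UV2 anti-PD-1 tumors. The anti-PD-1 groups did not overlap, whereas UV2 isotype replicate 3 was under parental isotype replicate 3. The averaged difference was 0.77 ± 0.18, a 1.71-fold change (adjusted p = 0.0091, passing in all 12 fits without 1 library).

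Atp5b (ENSMUSG00000025393.12, chr10:128083273-128090391), the catalytic beta subunit and the most abundant of all 92 genes in TPM, was 1134, 1090.4 and 1074 TPM in parental isotype, 1175, 1039 and 1089.55 in parental anti-PD-1, 839, 1103 and 1096 in parental triple therapy, 1000.1, 729 and 972 in UV2 isotype and 842, 792 and 689 in UV2 anti-PD-1 tumors. All 6 UV2 values lay below the 6 parental isotype and anti-PD-1 values. Averaged over treatments, the difference was -0.41 ± 0.10 (adjusted p = 0.013, passing in all 12 fits without 1 library), but it was -0.24 with median-of-ratios scaling (adjusted p = 0.083), which moved the median of all genes from -0.12 to 0.02. Ndufs1 and Atp5b were the only members for which all 6 UV2 libraries were below all 6 parental isotype and anti-PD-1 libraries, 2.17% of the 92 against 5.22% of all genes. None had all 6 above, against 4.46% of all genes. The partner of Atp5b in the head, Atp5a1, differed by -0.22 ± 0.08 (adjusted p = 0.055). The 3 genes of the membrane c ring, Atp5g1, Atp5g2 and Atp5g3, encode the same mature protein and differed by 0.13, 0.21 and 0.18 (adjusted p = 0.35, 0.15 and 0.24).

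Only Sdhaf1 of the 10 assembly factors was higher in the averaged comparison (10%, against 13.4% of all genes). This gene, which helps insert iron-sulfur clusters into Sdhb, rose by 0.45 ± 0.15 in UV2 (adjusted p = 0.033). It was 15.4, 15.1 and 23.4 TPM in parental isotype, 13.0, 16.5 and 15.5 in parental anti-PD-1, 22.3, 23.0 and 18.4 in UV2 isotype and 19.4, 25.4 and 27.75 in UV2 anti-PD-1 tumors. Parental isotype replicate 3 was above the highest UV2 isotype library. The call was lost in 8 of 12 fits without 1 library, with adjusted p up to 0.085: it held only without parental isotype replicate 3, parental anti-PD-1 replicate 2, UV2 isotype replicate 3 or UV2 anti-PD-1 replicate 1. Atp5sl was called with anti-PD-1, at 0.90 ± 0.29 (adjusted p = 0.039), and in none of the 6 fits without 1 library of that comparison (adjusted p 0.054 to 0.15).

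Therapy within a line called no member. Anti-PD-1 in parental tumors called none of the 92 genes and 0% of all genes, with no member at an unadjusted p under 0.05, against 83 of all 13592 genes. The smallest p values belonged to Ndufaf2, Atp5s and Ndufb4, at -0.33 ± 0.17, -0.44 ± 0.25 and -0.27 ± 0.15. Anti-PD-1 in UV2 tumors called none of the members and 0.0147% of all genes. An unadjusted p under 0.05 was reached by 1245 of all 13592 genes and by 2 of the 92 members. These were Ndufaf7, a methyltransferase for complex I assembly, at -0.38 ± 0.13, and Sdha, at -0.30 ± 0.12 (both adjusted p = 0.54). Ndufaf7 was 19.6, 16.3 and 16.5 TPM in UV2 isotype and 13.26, 13.15 and 13.05 in UV2 anti-PD-1 tumors.

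Triple therapy called no member relative to isotype (0.0221% of all genes) or to anti-PD-1 tumors (0% of all genes). An unadjusted p under 0.05 was reached by 4 and 6 of the 92 members, and by 1714 and 1411 of all 13592 genes. Cox8a, the ubiquitous form of subunit VIII, had 343, 559 and 503 TPM with triple therapy against 603, 588 and 739 with isotype antibody, a difference of -0.48 ± 0.16 (adjusted p = 0.34) that was -0.27 without triple therapy replicate 1. For Ndufa4l2 the difference from isotype was 1.95 ± 0.70 (adjusted p = 0.34), and 1.02 without the same library. Cox4i2 differed by 1.10 ± 0.44 (adjusted p = 0.35). All 7 keratinocyte markers had an unadjusted p under 0.05 in this comparison, all higher, and their mean log2(TPM + 1) was 2.93 to 9.70 in triple therapy and 0.703 to 0.852 in isotype tumors. The part of skin in these values was not tested. Medians over the 92 genes were -0.10 for anti-PD-1 in parental, 0.04 for anti-PD-1 in UV2, -0.09 for triple therapy relative to isotype and 0.02 relative to anti-PD-1 tumors, beside 0.07, -0.11, 0.12 and 0.04 for all genes.

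The members share short transcripts, and the line difference ran with transcript length across the whole table. Their principal transcripts had a median of 870 nt, against 2842 nt for the other tested genes, and 77.2% against 17.4% were under 1500 nt. In the averaged comparison the median difference of the other genes was 0.32 for transcripts under 750 nt, 0.17 from 750 to 1500 nt, -0.05 from 1500 to 3000 nt and -0.32 over 3000 nt. The medians of the members in the first 3 classes were 0.31 (41 genes), 0.23 (30 genes) and 0.00 (17 genes), and the 4 members over 3000 nt had 0.07. Members called higher measured 421 to 2490 nt (median 745 nt), while Uqcrc2, Atp5b and Ndufs1, called lower, measured 1896, 1916 and 2661 nt.

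**Figure D5:**
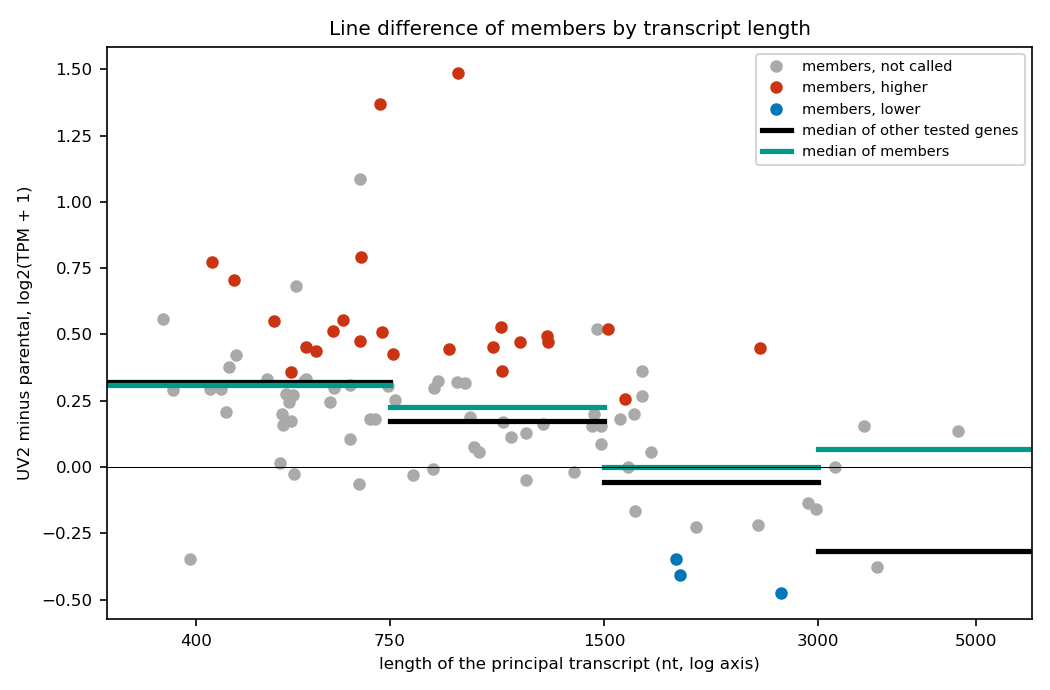
Averaged UV2 minus parental difference on log2(TPM + 1) of the 92 genes (points) against the length of the principal transcript (log axis). Black lines are the medians of the other tested genes in 4 length classes and teal lines those of the members; the black medians fall from 0.32 to -0.32, and the members' medians are close to them below 3000 nt.

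The length pattern was also visible per library. The median deviation of the members from their own means was 0.46 in UV2 anti-PD-1 replicate 3, 0.35 in UV2 isotype replicate 2, 0.26 in parental isotype replicate 3 and 0.19 in UV2 anti-PD-1 replicate 2, the 4 highest of the 15. In the same libraries the median deviation of other genes over 3000 nt minus that of genes under 750 nt was -0.995, -0.889, -0.471 and -0.588, the 4 lowest. It ran up to 0.57, in parental anti-PD-1 replicate 1. As a description over the 15 libraries, the level of most members correlated with the median over members, by a median Pearson r of 0.90 in complex I, 0.62 in complex II, 0.86 in complex III, 0.81 in complex IV, 0.90 in complex V and 0.32 in the assembly factors. None of the 71 members under 1500 nt had r below 0, against 7 of the 17 from 1500 to 3000 nt and 1 of the 4 over 3000 nt. The 8 were Uqcrc2 (-0.79), Ndufs1 (-0.69), Ndufa10 (-0.67), Atp5b (-0.63), Atp5a1 (-0.61), Sdha (-0.56), Ndufaf4 (-0.48) and Sdhaf2 (-0.08). Other long members had r above 0, among them Sdhaf1 (0.93), Atp5g1 (0.88), the longest, Ndufab1 (0.76) and Sdhc (0.32). The genes share their libraries in these correlations, and so the depth and composition of each.

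With a smooth trend on transcript length removed from each library, an alternative chosen after the data were seen, the averaged comparison called 4 members higher and 6 lower (36.6% of all genes called), and the median over members was -0.05, against -0.04 for all genes. Ndufc2 (0.43, adjusted p = 0.0063), Atp5e (0.32, 0.036), Cox4i2 (1.02, 0.0078) and Ndufa4l2 (1.20, 0.049) stayed higher. Ndufs1 (-0.41, adjusted p = 0.0038), Atp5b (-0.47, 0.0053) and Uqcrc2 (-0.41, 0.018) stayed lower. Ndufaf2, Ndufs5 and Atp5j, not called before, were lower. Among calls that were lost, the difference was 0.05 for Ndufa6, 0.11 for Ndufb8, 0.24 for Sdhb, 0.27 for Cox7a2l and 0.26 for Ndufa4. It was 0.38 for Uqcrq, and for Sdhaf1 it was 0.49 ± 0.19 (adjusted p = 0.061), no smaller than the 0.45 before. Removing a trend on coding length called 9 higher and 4 lower, with a median of 0.08, where 16.5% of all genes were higher and 20.7% lower. After that removal Ndufs1 was not called (-0.26, adjusted p = 0.073), while Ndufc2, Atp5e, Cox4i2, Ndufa4l2, Cox7a2l, Sdhb, Ndufb8 and Ndufa4 were among those higher and Atp5b and Uqcrc2 among those lower.

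Other genes of the pathway were read from written lists in the averaged comparison, in which 13.4% of all tested genes were higher and 19.6% lower. Among 5 other subunits and carriers none was called: cytochrome c1, Cyc1, differed by -0.07 ± 0.08 and cytochrome c, Cycs, by -0.19 ± 0.17 (adjusted p = 0.52 and 0.37). Of 32 further assembly factors tested, 6 were higher (18.8%) and 2 lower (6.25%), with Cox16 at 0.69 ± 0.15 and Higd1a at -0.67 ± 0.16. Of 12 regulators of mitochondrial biogenesis, none was higher and 2 were lower (16.7%, near the share of all genes), Pprc1 at -0.67 ± 0.22 and Gabpa, a subunit of GABP, at -0.44 ± 0.15. The mitochondrial transcription factor Tfam differed by 0.03 ± 0.09, and the coactivator Ppargc1a was at 0.03 to 0.47 TPM. With the transcript length trend removed, 2 of the 5 other subunits and carriers were lower and none higher. Of the 32 assembly factors, 2 were then higher and 3 lower, and of the 12 regulators none was higher and 3 were lower. Of all genes, 16.3% were then higher and 20.4% lower.

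Pyruvate dehydrogenase and the citric acid cycle feed electrons to the chain. Of 18 of their genes, 10 were lower in UV2 (55.6%) and none higher in the averaged comparison, and none was called between the isotype groups. The averaged values had a median of -0.42, and the called genes included Idh3a (-0.56 ± 0.12), Dlst (-0.64 ± 0.15), Dlat (-0.59 ± 0.14) and citrate synthase, Cs (-0.52 ± 0.13, adjusted p = 0.012). With the transcript length trend removed, 14 of the 18 were lower and none higher, where 20.4% of all genes were lower. Of 76 mitochondrial ribosomal genes, 14 were higher (18.4%) and 5 lower (6.58%), and 2 and 13 after the same removal. T cell genes also differed between the lines: 4 of 5 were higher in UV2, and their mean log2(TPM + 1) was 2.55 to 4.13 in parental isotype, 2.44 to 3.94 in parental anti-PD-1, 3.17 to 5.06 in UV2 isotype and 5.35 to 5.76 in UV2 anti-PD-1 tumors. Of 4 macrophage genes, 2 were higher. None of 11 skeletal muscle genes was called. With the muscle level as a covariate 28 members were called (30.4%, against 33.2% of all genes), 25 higher and 3 lower. The part of immune cells in the respiratory chain values was not tested.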

How the data were processed

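The authors' deposited table holds gene-level TPM, relative abundances corrected for transcript length, for 15 libraries. RSEM and Bowtie2 are named, without versions, and builds mm10 and GRCm38, per the submitters' processing notes. TPM divides by transcript length and by the library total, keeps no read depth and sums to 1000000 in each library, so a rise of some genes lowers others. Values were taken to log2(TPM + 1), computed here from the deposited TPM and not log2 as deposited, which understates changes of low genes. Genes with at least 1 TPM in at least 3 libraries (13592 of 23420) were tested with limma 3.58.1 in R 4.3.3: 1 coefficient per group over all 15 libraries, empirical Bayes with trend and robust settings, 2-sided, Benjamini-Hochberg adjustment over all tested genes, called at adjusted p under 0.05, for 8 comparisons. Comparisons within a line share their isotype or anti-PD-1 libraries.

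Samples were grouped by the labels. No column of per-sample values was left out (0 unused). Coordinates and lengths of the principal transcript are from GENCODE M21 (GRCm38), promoter windows from RefSeq. The members and lists were chosen with earlier results of these data known. Genes were named by a written rule: every called member of a comparison with 12 or fewer, otherwise the 12 with the smallest adjusted p, at most 4 per complex; where none was called, the 3 with the smallest p; the most abundant member of each complex; the 5 members with the largest spread on the log2 scale; the isoform pairs and complex II; and a few regulators and called genes of the lists. Alternatives were a pseudocount of 0.1, no filter, a filter of 5 TPM, median-of-ratios and quantile scaling, the compared groups alone, a replicate block, library weights, a skeletal muscle covariate and each library left out; removal of a length trend (a spline with 5 degrees of freedom per library) was added after seeing the data. Same-numbered libraries had deviations correlated above 0.1 in all 3 pairs only between parental anti-PD-1 and triple therapy, which neither shows nor excludes a pairing. The scripts were tested on simulated data.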

Additional observations from a re-analysis of the deposited data

How the results depend on the processing

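The averaged line comparison called between 20 and 30 members with a pseudocount of 0.1, no level filter, a filter of 5 TPM, median-of-ratios scaling, quantile normalization, the compared groups alone or a skeletal muscle covariate, against 27 as reported. Of all genes, these settings called from 21.8% with no level filter to 38.1% with the filter of 5 TPM, against 33.0% as reported. The shares of members there were 21.7%, 33% and 29.3%. Without a level filter the anti-PD-1 line comparison called 7 instead of 18 (13.5% of all genes). Library weights, taken gene by gene because the default estimate did not converge, called 15 with isotype antibody (15.1% of all genes), 63 with anti-PD-1 (59.6%), 64 averaged (57.7%), 11 for triple therapy minus isotype (24.4%) and 13 for triple therapy minus anti-PD-1 (16.7%). Median-of-ratios scaling gave medians of 0.61 (anti-PD-1 line), 0.43 (averaged) and 0.36 (interaction). Removal of the transcript length trend gave 7 calls (anti-PD-1 line, 28.4% of all genes) and 10 (averaged, 36.6%). The medians were -0.0082 (isotype line), -0.058 (anti-PD-1 line), -0.047 (averaged) and -0.15 (anti-PD-1 in UV2). They were -0.31 and -0.23 (triple therapy minus isotype and minus anti-PD-1) and -0.063 (interaction). Removal by coding length gave 4 calls (anti-PD-1 line, 27.9% of all genes) and 13 (averaged, 37.2%). Medians were then 0.11, 0.082, -0.28 and -0.19 for the anti-PD-1 line, averaged and both triple comparisons. Cox6c in the anti-PD-1 line comparison went from 0.59 to -0.0032 ± 0.13 (limma, adjusted p = 0.99) without the transcript length trend, with no difference called in either direction. The cause was not tested.

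Leaving out 1 library at a time gave 0 to 3 calls (isotype line), 0 to 30 (anti-PD-1 line) and 9 to 50 (averaged), and 0 in each therapy comparison and the interaction. Medians ran from 0.06 to 0.30 (isotype line), 0.24 to 0.48 (anti-PD-1 line), 0.20 to 0.34 (averaged), -0.19 to 0.01 (anti-PD-1 in parental), -0.09 to 0.17 (anti-PD-1 in UV2), -0.18 to 0.03 and -0.01 to 0.08 (the same triple therapy comparisons) and 0.00 to 0.29 (interaction). The group left with 2 libraries is assumed to vary like the others.

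With the replicate number as a block, 12 members were called in the anti-PD-1 line comparison and 22 in the averaged one, against 18.6% and 29.5% of all genes, and no member in the others. Of 30 same-numbered pairs of libraries, 10 correlated above 0.1 in their deviations (range -0.54 to 0.47). All 3 pairs did so only between parental anti-PD-1 and parental triple therapy (0.35, 0.14 and 0.15), where no member was called with or without the block. Such a check neither establishes a pairing there nor excludes one between the other groups. Read depth is unknown, so no counting error can be given. With 3 libraries a group, a miss of the threshold does not show equal levels.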

Other observations

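Outside the respiratory chain, genes of glycolysis and the hypoxia response were lower in UV2 tumors in the averaged comparison. Of 22 tested, 19 were lower (86.4%, against 19.6% of all genes) and none higher, with a median of -0.89: the prolyl hydroxylase Egln3 differed by -1.49 ± 0.24 (adjusted p = 0.0018), the angiogenic factor Vegfa by -1.34 ± 0.23 (0.0024) and pyruvate kinase, Pkm, by -1.07 ± 0.19 (0.0027). With the transcript length trend removed, 18 of the 22 were lower and the median was -0.90. Cox4i2 and Ndufa4l2, known as hypoxia-induced members of complex IV, were higher in the same comparison.

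The cytosolic ribosome, another set of short transcripts, had 31 of 85 genes higher (36.5%, against 13.4% of all genes) and none lower in UV2, led by Rplp1 at 0.80 ± 0.15 and Rpl36 at 0.71 ± 0.13. With the transcript length trend removed, 4 were higher and none lower. In the proteasome core 3 of 17 genes were higher (17.6%, near the share of all genes), and they were the immunoproteasome subunits Psmb10 (1.49 ± 0.29), Psmb8 (1.04 ± 0.28) and Psmb9 (adjusted p = 0.017). The length removal also called 3 of the 17 higher.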
